A study of Homo sapiens with 27 samples.

Results

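The glycolysis and hypoxia genes described here are a list of 36 named genes: the glucose transporters, the glycolytic enzymes with their lactate branch and regulators, and the hypoxia-inducible factor (HIF) genes with some of their targets. They were found by symbol in a table of 14008 genes, where 35 of the 36 had a row, and all 35 passed the filter on low counts in each comparison. The level of EGLN3, an oxygen-sensing prolyl hydroxylase, was not analysed here. The list was drawn up by function with earlier results of these data known, though the rule for membership uses no measured value.

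The values are read counts from 27 QuantSeq 3′ RNA-seq libraries of teloHAEC, an immortalised human aortic endothelial cell line grown in medium with a VEGF kit. Every library came from 150000 cells that received Cas9 ribonucleoprotein by electroporation and were collected 2 days later, so the controls carried Cas9 and a guide as well. Set A held 4 libraries with guides flanking an enhancer of SMAD3 (the SMAD3 deletion), 4 with the positive control guide, which cuts HPRT (HPRT-targeted), and 4 with a negative control guide that has no target. Set B held 4 libraries with guides flanking an enhancer of LDAH, listed under its older name C2orf43 (the LDAH deletion), 4 HPRT-targeted libraries and 7 negative control libraries. The labels describe no cloning of edited cells and no low-oxygen step, and nothing in them says that replicates were separate cultures, so the p-values below measure the spread between these libraries.

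Glycolysis splits glucose into pyruvate in the cytosol, and endothelial cells are known to draw much of their ATP from it. When oxygen falls, prolyl hydroxylases such as EGLN1 stop marking the HIF alpha subunits (HIF1A, and EPAS1, also called HIF-2 alpha) for degradation. The subunits then bind core letters such as ACGTG with ARNT and raise the transcription of glycolytic enzymes, lactate exporters and other targets. HIF alpha is controlled mainly at the protein level, and protein was not measured here.

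Because the list mixes enzymes with HIF targets, promoter sequence is shown for 3 of the genes on which the comparisons below turn. The sequences are from RefSeq (GRCh38.p14), on the plus strand, 5′ to 3′, and each precedes 1 annotated transcript start. For all 3 genes that start lies inside the outer limits of the gene given below, past its first base. Capitals mark ACGTG on either strand. In each case the 2 printed matches lie on opposite strands and overlap as CACGTG. Bases of the same windows that fall in annotated exons of the gene were left out.
PFKFB3, chr10:6202682-6202865: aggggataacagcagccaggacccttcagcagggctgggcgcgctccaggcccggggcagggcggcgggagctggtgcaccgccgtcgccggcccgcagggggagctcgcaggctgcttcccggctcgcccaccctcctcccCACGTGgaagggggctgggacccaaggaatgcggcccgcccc
GAPDH, chr12:6535142-6535263: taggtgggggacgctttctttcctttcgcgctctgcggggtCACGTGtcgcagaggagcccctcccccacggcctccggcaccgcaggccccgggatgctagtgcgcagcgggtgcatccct
LDHA, chr11:18394313-18394387: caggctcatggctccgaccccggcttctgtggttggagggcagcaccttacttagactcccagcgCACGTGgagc

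The printed matches began 108 and 107 bases before that start in PFKFB3, and 81 and 80 bases before it in GAPDH. In LDHA they began 185 and 184 bases before it. The LDHA window held 5 matches in all, and those 87, 86 and 73 bases before the start lie in annotated exons. PFKFB3 and LDHA each have 2 windows, of which the one with more matches was used, and the other held 0. Of 32 members with a promoter window, 19 (59.4%) held at least 1 ACGTG in the 250 bases before a start, against 3062 of 10628 genes of the count table (28.8%). Members have more windows per gene than other genes. By window, 22 of 63 held the letters (34.9%), against 3437 of 15400 windows of the table's genes (22.3%). The 63 include a window of EGLN3, whose level was not analysed, and it held 0 matches. Neither window of HIF1A held a match, and ENO1 and EPAS1 had none, while PGK1 had 2. ADM, a HIF target named below, had 0 matches in its 1 window; all 250 bases of that window lie in an annotated ADM exon and are not printed. A match describes letters in a window, other forms of the core were not searched, and binding was not measured.

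Total counts ranged from 4.76 to 7.75 M reads in set A libraries and from 3.43 to 6.41 M in those of set B. Levels are given in CPM (reads of the gene per 1000000 reads of the library), normalised by TMM over the 27 libraries. A count of 0 allows up to 0.406 to 0.886 CPM (3 counts), which covers counting error only because the reads carry no molecular identifiers. Within their set, 7 libraries correlated less well with the rest: replicate 4 of the SMAD3 deletion and replicate 3 of the HPRT-targeted group in set A, and, in set B, replicate 4 of the LDAH deletion, replicates 2 and 4 of the HPRT-targeted group and replicates 6 and 7 of the negative control. Their median correlation across genes was 0.892 to 0.950 in set A, against 0.979 to 0.985 for the other libraries. In set B it was 0.795 to 0.848 against 0.929 to 0.967. Many results below are therefore also given without these 7, a choice made after seeing the data. For others, among them the fold changes of P4HA1 and of the other pathway genes, that value is not printed. Its absence does not mean that the result stayed the same. All 10 endothelial markers had rows in the table. Of the markers of other cell types, ACTA2, KRT19 and CD68 had rows. In bulk libraries, fewer cells of a type and less RNA per cell cannot be told apart. The targeted genes themselves ranged from 75.6 to 111 CPM for SMAD3 in its deletion and from 120.4 to 142 in the negative control of set A, from 2.66 to 10.6 CPM for LDAH in its deletion against 7.76 to 18.2 in set B's negative control, and from 28.9 to 43.2 CPM for HPRT1 in the HPRT-targeted libraries of set A against 35.9 to 54.4 (24.9 to 54.5 against 35.8 to 93.4 for set B).

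Glycolytic transcripts were among the abundant ones in these cells, and most steps with paralogs were dominated by 1 of them. QuantSeq yields tags from the end of each transcript, so CPM of different genes was compared without dividing by length. ENO1 (enolase) had the highest mean over the 27 libraries at 2803 CPM, followed by GAPDH (glyceraldehyde-3-phosphate dehydrogenase) at 2082 CPM and PKM (pyruvate kinase) at 968 CPM. TPI1, ALDOA, LDHA and PGAM1 lay between 412 and 476 CPM. At the low end, ALDOC had 3.3 CPM, the HIF target ANKRD37 2.5 CPM and PFKFB4 2.1 CPM.

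Between paralogs, HK1, the constitutive hexokinase, exceeded HK2 in 27 of 27 libraries, with a median ratio of 10.6 and a range of 5.37 to 31.9. PFKP exceeded PFKL, both subunits of phosphofructokinase, in 27 of 27 with a median ratio of 4.99. The ratio of ENO1 to the neuronal enolase ENO2 had a median of 458, and that of ALDOA to ALDOC a median of 151. The glucose transporter SLC2A1, often the main carrier in endothelium, lay above SLC2A3 in 1 library only, with a median ratio of 0.551. EPAS1 and HIF1A were near each other, with a median ratio of 1.02 over a range of 0.271 to 1.48.

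**Figure D1:**
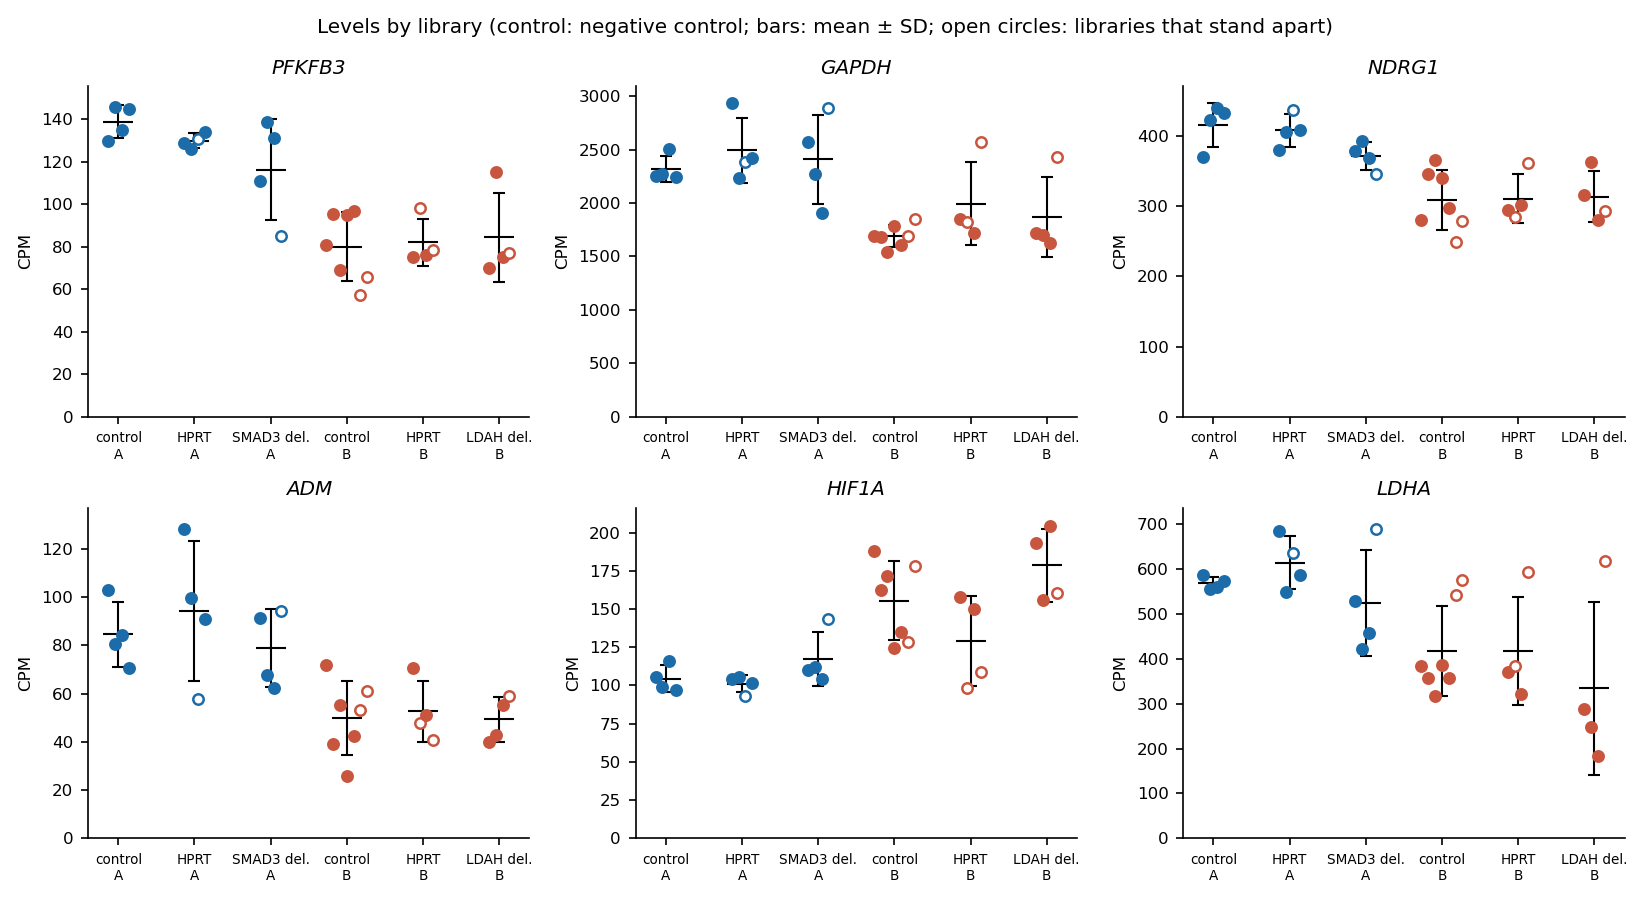
Levels of PFKFB3, GAPDH, NDRG1, ADM, HIF1A and LDHA in CPM (y axis, from 0) in each library of the 6 groups (x axis), with bars for the mean and SD of a group; open circles are the libraries that correlated less well with their set. The 4 negative control libraries of set A lie above all 7 of set B for PFKFB3, GAPDH and NDRG1 and below all 7 for HIF1A.

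With all libraries, members passed the test between the negative controls of the 2 sets and in none of the other 8 comparisons. PFKFB3, GAPDH, NDRG1 and ADM were lower in set B and HIF1A was higher, so 5 of the 35 members passed edgeR's quasi-likelihood test at a Benjamini-Hochberg threshold of 0.05. This is 14.3% of the members, where 1039 of 11466 genes tested passed (9.06%), 4.73% higher and 4.33% lower. At an unadjusted p under 0.05 the test gave 9 members, where 23.8% of genes had one. The groups did not overlap for 4 of the members, where 12.5% of genes did not overlap. The median log2 difference of the members was -0.04, with 17 of 35 above 0 against 52.3% of genes (13 of 35 against 51.6% without replicates 6 and 7 of set B). The set stands for everything that differed between the sets, so what differed cannot be told apart.

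Among the regulators of glycolysis, PFKFB3 makes fructose-2,6-bisphosphate, the activator of phosphofructokinase, and is known as a driver of glycolysis in sprouting endothelium. It lies on chr10:6144934-6254644 of GRCh38. Its 4 negative control libraries of set A had 129.6, 145.5, 134.8 and 144.9 CPM. The 7 of set B ranged from 57.3 to 96.7 with a median of 81.0 CPM. All 7 lay under the lowest library of set A, and the fitted log2 difference was -0.81 ± 0.15 (SE; n = 4 and 7), with an adjusted p of 0.0061 in edgeR's test. Its paralog PFKFB4 was too low to compare, at 2.1 CPM.

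Of the enzymes of lower glycolysis, GAPDH (chr12:6533927-6538374) makes NADH and 1,3-bisphosphoglycerate. In the negative control of set A it had 2254, 2274, 2506 and 2244 CPM. In set B it ranged from 1538 to 1849 with a median of 1690 CPM. The groups did not overlap, and the log2 difference was -0.47 ± 0.09 (adjusted p = 0.00631, edgeR). GAPDH is widely taken as a reference gene, and its level here was not the same in the controls of both sets.

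Lactate dehydrogenase A (LDHA, chr11:18394388-18408425), which turns pyruvate into lactate, had 587, 556, 561 and 575 CPM in set A. In set B, replicates 1 to 5 had 385, 358, 316, 387 and 358 CPM, and replicates 6 and 7, both among the libraries that stand apart, had 542 and 577 CPM. LDHA thus differed by -0.46 ± 0.17 on the log2 scale with an adjusted p of 0.111 over all 11 libraries, and by -0.68 ± 0.08 with an adjusted p of 2.9e-06 without replicates 6 and 7 (edgeR). The lactate exporter SLC16A3 (MCT4, chr17:82228397-82261129), itself a known HIF target, had the opposite sign: 75.5 to 97.3 CPM in set A and 80.9 to 160.7 with a median of 122 in set B, a log2 difference of 0.55 ± 0.17 that did not pass (adjusted p = 0.0609). Without the 2 libraries it was 0.62 ± 0.12 with an adjusted p of 0.000654. SLC16A3 overlaps CSNK1D on the opposite strand at its 3′ end, and the sources used here do not give the strand setting of the counting, so its count may include reads of that gene.

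HIF1A (chr14:61695513-61748259) encodes the oxygen-regulated subunit of HIF-1. It had 105.9, 98.7, 116 and 96.9 CPM in the negative control of set A. Set B ranged from 124.6 to 188 with a median of 162 CPM, all above set A, and the log2 difference was 0.56 ± 0.15 (adjusted p = 0.0323, edgeR). EPAS1 (chr2:46293667-46386703) differed by 0.16 ± 0.34 over all 11 libraries, with its replicates 6 and 7 of set B at 52.3 and 50.2 CPM, and by 0.48 ± 0.12 without those (adjusted p = 0.00415).

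Among HIF targets, NDRG1, a stress-response gene strongly induced by hypoxia in many cells, had 370.0, 422, 439 and 432 CPM in set A. In set B it ranged from 249 to 365 with a median of 298 CPM, without overlap. The log2 difference was -0.45 ± 0.13 (adjusted p = 0.0394, edgeR). ADM (chr11:10304680-10307397), which encodes the vasodilator peptide adrenomedullin, had 103.0, 80.6, 84.2 and 70.5 CPM in set A and 25.97 to 71.7 with a median of 53.1 CPM in set B. Only the lowest library of set A lay within the range of set B, and the log2 difference was -0.78 ± 0.23 (adjusted p = 0.0494, edgeR). Both called targets were lower in set B, but of the 9 HIF targets 6 had a log2 difference above 0 and did not pass, and 3 lay below 0.

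The calls of PFKFB3 and GAPDH held when any 1 of the 11 libraries was left out. HIF1A lost its call in 7 of these 11 fits, ADM in 7 and NDRG1 in 6. All 3 lost it without any 1 of the 4 negative control libraries of set A, with adjusted p from 0.0666 to 0.174. Of set B, HIF1A lost it without replicate 1, 2 or 3 (0.0517 to 0.0585), ADM without replicate 2, 3 or 5 (0.0706 to 0.0849), and NDRG1 without replicate 1 or 5 (0.0636 to 0.0669). Log2 differences in these 11 fits spanned 0.50 to 0.60 for HIF1A, -0.89 to -0.67 for ADM and -0.51 to -0.41 for NDRG1.

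Without replicates 6 and 7 of set B, 14 of the 35 members (40.0%) passed, and 31.2% of genes did. Those higher in set B were HIF1A, SLC16A3, EPAS1 and 4 enzymes of upper glycolysis: PFKL at 0.47 ± 0.14, HK1 at 0.32 ± 0.10, ALDOA at 0.30 ± 0.11 and GPI (glucose-6-phosphate isomerase) at 0.23 ± 0.08 on the log2 scale. Those lower were ADM at -0.88 ± 0.20, PFKFB3 at -0.69 ± 0.11, LDHA, PGK1 (phosphoglycerate kinase) at -0.57 ± 0.09, GAPDH at -0.51 ± 0.07, NDRG1 at -0.38 ± 0.09 and ENO1 at -0.25 ± 0.06. The enzymes called higher all act before GAPDH, and GAPDH, PGK1, ENO1 and LDHA, which act from that step on, were called lower. In the same fit, only these 4 of the 9 upper glycolysis members lay above 0, and the median of the 9 was -0.03. Of the 6 lower glycolysis members 0 lay above 0, with a median of -0.22. With all libraries, GAPDH was the only 1 of these enzymes called, and 5 of the 9 upper glycolysis members lay above 0. Their summed level was 1603 to 1631 CPM in the negative control of set A and 1707 to 1898 CPM in that of set B, with ALDOA alone at a mean of 378 and 519 CPM. The sum of the 6 lower glycolysis members overlapped, at 6474 to 6870 CPM in set A libraries and 5300 to 7208 CPM in those of set B.

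**Figure D2:**
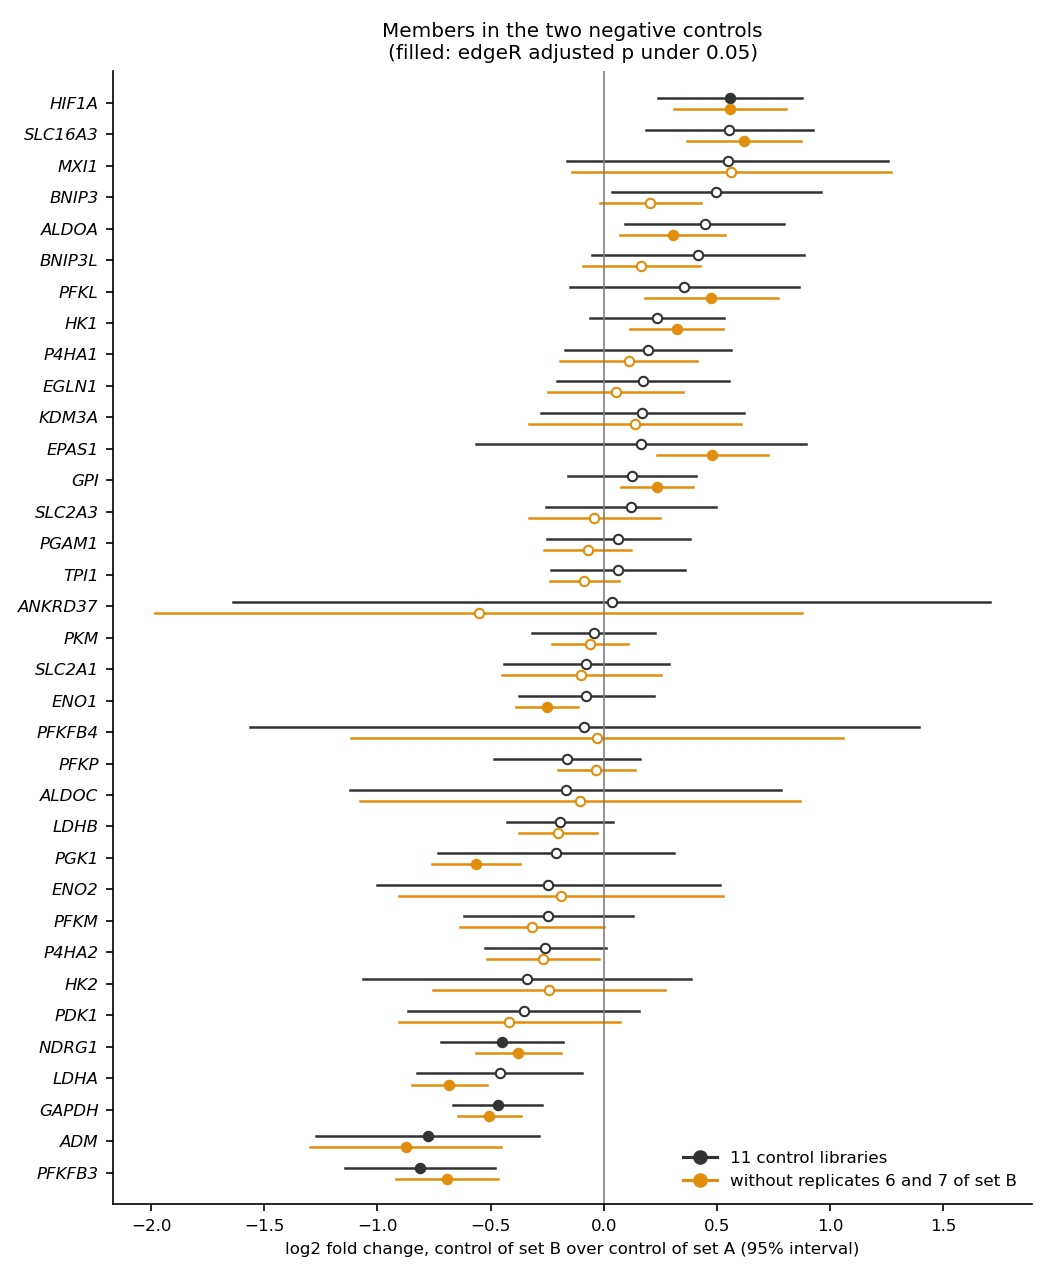
Log2 fold change of the 35 members in the negative control of set B over that of set A (x axis, with 95% intervals), with all 11 libraries and without replicates 6 and 7 of set B; filled points have an adjusted p under 0.05 in edgeR's test. PFKFB3, ADM, GAPDH, NDRG1 and HIF1A are filled with all libraries, and 14 members are filled without those 2.

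In set A, deletion of the SMAD3 enhancer was compared with the negative control to ask whether genes other than SMAD3 responded. No member passed the adjusted threshold, and of all genes 0 of 11467 did (0%). At an unadjusted p under 0.05, edgeR gave 2 members, ALDOA and PFKL, both higher, where 6.78% of genes had such a p. DESeq2 called 0 members and 14 genes, and limma voom called 0 members and 2 genes. The 35 members had a median log2 difference of 0.02, with 18 above 0 (51.4%) against 50.3% of all genes, whose median was 0.00. Without the libraries that stand apart, 14 lay above 0 (40.0%) against 49.3% of genes.

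PFKL (chr21:44300051-44327376), the liver-type phosphofructokinase subunit, had 58.9, 56.3, 50.5 and 65.6 CPM with the deletion and 42.1, 39.2, 45.7 and 47.6 CPM in the control. The 4 deletion libraries lay above the 4 controls, with a log2 difference of 0.39 ± 0.16 (unadjusted p = 0.0241, adjusted p = 0.724, edgeR). ALDOA (aldolase A, chr16:30064164-30070457) had 442, 426, 424 and 584 CPM against 387, 373, 369 and 382 CPM. Its log2 difference of 0.30 ± 0.11 (adjusted p = 0.702) became 0.19 without replicate 4 of the deletion, the highest library. BNIP3L, a mitophagy receptor induced by hypoxia, also did not overlap, at 85.7 to 139 CPM against 76.6 to 85.0. It differed by 0.31 ± 0.15 with all libraries and by 0.13 without that replicate. These were the 3 members whose groups did not overlap, all higher, where 5.71% of genes did not overlap and 3.37% were higher.

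PFKFB3 in the SMAD3 deletion had 110.7, 138, 131 and 85.0 CPM against the 129.6 to 145.5 CPM of its control, a log2 difference of -0.27 ± 0.13 that did not pass. ENO2 had the lowest fold change of the members, -0.59 ± 0.28, at 3.45, 5.96, 4.75 and 3.20 CPM against 4.23 to 8.86. LDHA differed by -0.13 ± 0.14, and by -0.29 ± 0.10 without the libraries that stand apart (adjusted p = 0.315). In that alternative no member passed, and 0.00864% of genes did. The 95% interval of LDHA with all libraries was -0.43 to 0.17.

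In set B, the LDAH enhancer deletion gave no called member against its negative control with all libraries, and 0 of 11769 genes passed (0%). At an unadjusted p under 0.05, edgeR gave 1 member, SLC16A3, where 4.61% of genes had such a p. DESeq2 called 0 members and 14 genes, and limma voom called 0 of both. The median of the 35 members was 0.08 on the log2 scale with 23 above 0 (65.7%), against 51.7% of genes and a median of 0.01. Without the libraries that stand apart, 19 lay above 0 (54.3%) against 49.9% of genes, with a median of 0.03. The groups overlapped for every member, and 1.1% of genes did not overlap.

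SLC16A3 had 133, 199, 221 and 116 CPM with the LDAH deletion, against 80.9 to 160.7 with a median of 122 CPM in the negative control. Replicates 2 and 3 of the deletion lay above all controls and replicates 1 and 4 within them, for a log2 difference of 0.45 ± 0.20 (unadjusted p = 0.0399, adjusted p = 1.00, edgeR). PFKL had 73.5, 77.3, 107 and 71.8 CPM against 24.8 to 83.1 with a median of 57.4. Replicate 3 alone exceeded every control, and the log2 difference was 0.55 ± 0.28.

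LDHA depended on which libraries were kept. With the LDAH deletion it had 288, 249, 183 and 617 CPM. Replicates 1 to 3 lay below all 7 controls (316 to 577 CPM), and replicate 4, which stands apart, lay above them all. With all 15 libraries of the set the log2 difference was -0.31 ± 0.29 (adjusted p = 1.00, edgeR). It was -0.81 without replicate 4 alone (adjusted p = 0.267) and -0.11 without replicate 3 alone, so the value moved more than 1.5 times with either library. Without the libraries that stand apart, 3 of the deletion and 5 of the control remained and LDHA fell by 0.60 ± 0.13 on the log2 scale (adjusted p = 0.0145, edgeR). It was then the only called member, or 2.86% of 35, where 1.74% of genes passed (1.57% lower). In the same fit SLC16A3 differed by 0.51 ± 0.16 (adjusted p = 0.104) and PFKL by 0.46 ± 0.17 (adjusted p = 0.185). The ratio of LDHA to LDHB, the subunit of the enzyme form that favours pyruvate, had a median of 0.835 in the LDAH deletion group. Its median was 1.21 in the negative control and 1.24 in the HPRT-targeted group of set B. In replicate 4 of the deletion LDHA exceeded LDHB, at 617 against 360 CPM. Over the 27 libraries LDHA exceeded LDHB in 22, and the ratio was not tested.

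HPRT targeting served as the control for cutting the genome, and no member passed in either set. In set A, 0 of 11467 genes passed (0%), 0 members had an unadjusted p under 0.05, where 2.24% of genes did, and DESeq2 called 0 members. The median of the members was 0.10, with 23 of 35 above 0 against 49% of genes. BNIP3L was the 1 member whose groups did not overlap, at 85.6 to 105.7 CPM against 76.6 to 85.0, where 4.26% of genes did not overlap. In set B, 0 of 11769 genes passed (0%) and 0 members had an unadjusted p under 0.05, where 1.75% of genes did. The groups overlapped for every member, where 0.306% of genes did not, and DESeq2 again called 0 members. The median of the members there was 0.03, with 23 of 35 above 0 against 46.9% of genes. Without the libraries that stand apart, 17 of 35 lay above 0 (48.6%, as of all genes), with a median of -0.02.

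P4HA1, a collagen prolyl 4-hydroxylase subunit and a HIF target (chr10:73007217-73096974), had the smallest p of the members in each set. In set A it had 81.9, 100.9, 118 and 105.8 CPM with HPRT targeting and 83.8, 81.4, 101.9 and 69.6 CPM in the control, a log2 difference of 0.28 ± 0.16 (adjusted p = 0.988). In set B it had 108.8, 147, 118 and 144 CPM, against 64.4 to 118 with a median of 98.0, a difference of 0.42 ± 0.20 (unadjusted p = 0.0507). The highest of these HPRT-targeted values are in libraries that stand apart: replicate 3 for set A, replicates 2 and 4 for set B. Replicates 6 and 7 of set B's control stand apart too. Such libraries of any group had 118 to 128 CPM against 69.6 to 105.8 for set A, without overlap. For set B they had 108 to 147 against 64.4 to 118 CPM. Without HPRT-targeted replicate 3, the set A difference fell to 0.20. With 1 library of set B left out, its difference spanned 0.34 to 0.49. Fitted over both sets with the set as a term, P4HA1 differed by 0.35 ± 0.12 (unadjusted p = 0.00682, adjusted p = 0.937, edgeR), and 0 of 11836 genes passed (0%). Of the members, 22 of 35 lay above 0 against 46.8% of genes. GAPDH was the other of the 2 members with an unadjusted p under 0.05 there, where 3.19% of genes had one. It differed by 0.18 ± 0.08, and by 0.10 without replicate 4 of the HPRT-targeted group of set B. Its 2568 CPM in that library stood above the 1718 to 1854 CPM of the other 3.

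The effect of HPRT targeting itself was tested for a difference between the sets. No member and 0 of 11836 genes passed (0%), and 1 member, PFKM, had an unadjusted p under 0.05, where 1.12% of genes did. PFKM, the muscle-type phosphofructokinase subunit, had 21.9, 17.6, 18.9 and 14.9 CPM in the HPRT-targeted libraries of set B and 21.4 to 37.0 with a median of 25.2 in their control. In set A it had 31.8 to 35.4 CPM against 24.8 to 36.2. The effect in set B minus that in set A was -0.64 ± 0.25 on the log2 scale (unadjusted p = 0.0168, adjusted p = 1.00, edgeR). For 13 of the 35 members this difference lay above 0, against 46.8% of genes. Without the libraries that stand apart, no member passed for HPRT targeting in set A (0.00864% of genes did), in set B (0%), in both sets (0.00825%) or for the difference between the sets (0.00825%).

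The deletions were also compared with HPRT targeting, where genome cutting is common to both arms. These comparisons share the deletion libraries with the ones above and are not separate evidence. Against HPRT-targeted libraries of set A, the SMAD3 deletion gave no called member and 0 of 11467 genes (0%). There ENO2 was at 3.20 to 5.96 CPM against 5.52 to 8.91 (log2 difference -0.75 ± 0.28, unadjusted p = 0.0171) and PFKL differed by 0.34 ± 0.16 (unadjusted p = 0.047). These were the 2 members with such a p, where 5.83% of genes had one. Of the 35 members, 12 lay above 0 against 52.6% of genes. The groups overlapped for every member, where 3.35% of genes did not overlap. DESeq2 called 17 genes and 0 members there. Without the libraries that stand apart, 0.475% of genes passed and no member did. The members with the smallest adjusted p were then LDHA at -0.39 ± 0.10 (adjusted p = 0.0848, edgeR) and ADM at -0.55 ± 0.16 (adjusted p = 0.106).

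Against HPRT-targeted libraries of set B, the LDAH deletion gave no called member and 0 of 11769 genes (0%), and DESeq2 called 0 members. HIF1A was the 1 member with an unadjusted p under 0.05, where 4.22% of genes had one. It had 193, 156, 205 and 160.4 CPM with the deletion and 158, 98.7, 150.3 and 108.8 CPM with HPRT targeting, a log2 difference of 0.46 ± 0.20 (unadjusted p = 0.0313, adjusted p = 0.948, edgeR). The 2 lowest of these are replicates 2 and 4 of the HPRT-targeted group, which stand apart, and without the libraries that stand apart the difference was 0.24 ± 0.17. Of the 35 members, 22 lay above 0 against 51.7% of genes. All 9 upper glycolysis members did, with a median of 0.26, and PFKL was the 1 member whose groups did not overlap (71.8 to 107 against 25.6 to 71.4 CPM), where 2.32% of genes did not. Its lowest value, 25.6 CPM, is in replicate 2 of the HPRT-targeted group, and the log2 difference of 0.52 ± 0.32 became 0.28 without that library and 0.30 without all that stand apart. The 9 upper glycolysis members then still lay above 0, with a median of 0.23, and none passed. Of the libraries of set B that stand apart, 2 are in the HPRT-targeted group. These libraries had lower medians of GPI, PFKP, HK1 and PFKL, with log2 ratios of -0.51, -0.42, -0.27 and -0.15, and PFKM was at -0.02. Their medians of TPI1, ALDOA, HK2 and ALDOC were higher, with log2 ratios of 0.37, 0.35, 0.29 and 0.14. The part of these levels in the comparison was not tested. LDHA differed by -0.32 ± 0.33, and by -0.54 ± 0.16 without the libraries that stand apart (adjusted p = 0.161), when 0.634% of genes passed.

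**Figure D3:**
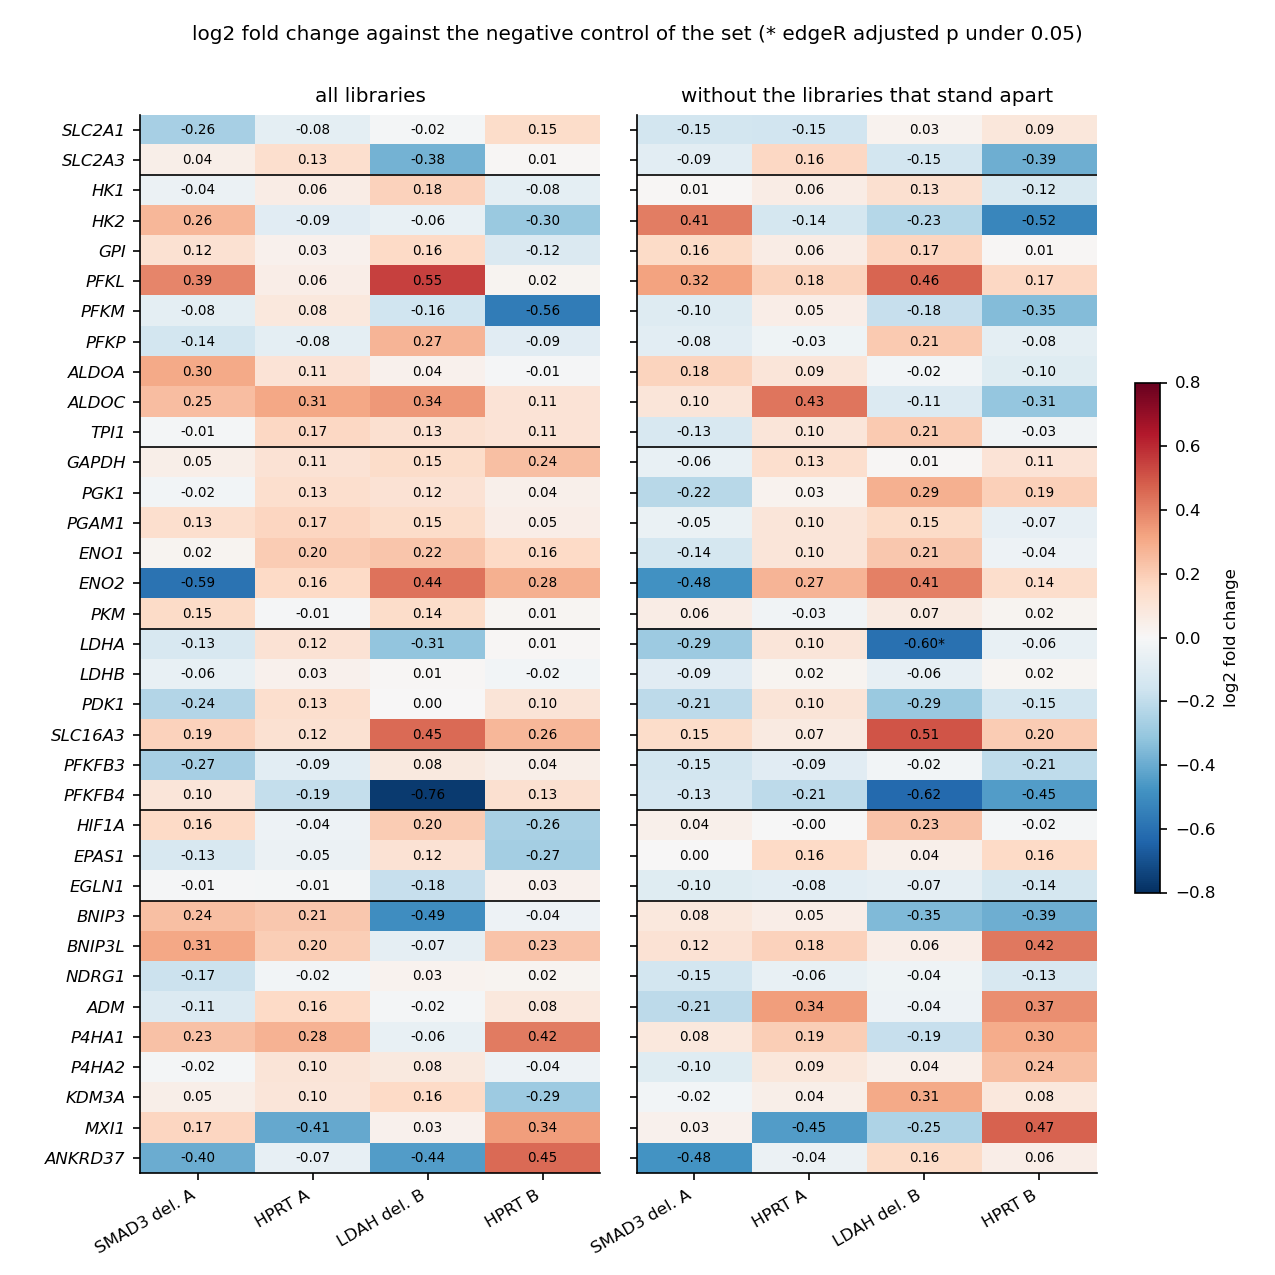
Log2 fold change (colour) of the 35 members (down the map) in the SMAD3 deletion, the LDAH deletion and the HPRT-targeted groups, each against the negative control of its own set, with all libraries on the left and without the 7 that stand apart on the right. An asterisk marks an adjusted p under 0.05 in edgeR's test, which LDHA in the LDAH deletion has, on the right only.

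Several members took different levels in the 7 libraries that correlated less well with their set, and these libraries fell in 5 of the 6 groups. EPAS1 was at 62.1 and 76.9 CPM in the 2 such libraries of set A and at 105.7 to 156 CPM in the other 10. In set B it was at 29.5, 40.2, 50.2, 52.3 and 61.5 CPM in the 5 such libraries and at 146 to 214 CPM in the rest. It is therefore below the other libraries in each of the 7, with a log2 ratio of medians of -0.76 for set A and -1.79 for set B.

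ENO1 (chr1:8861000-8879250) went the other way, at 3629 and 3716 CPM against 2372 to 3210 CPM in set A and at 3112 to 3892 CPM against 2193 to 2777 CPM in set B. GPI (chr19:34359480-34402413) was lower in the 5 libraries of set B, at 235 to 276 CPM against 333 to 450 CPM. BNIP3, a mitophagy receptor and HIF target, was at 99.8 and 102 CPM against 60.6 to 74.4 CPM in set A and, with overlap, at 83.0 to 141 CPM against 54.5 to 83.9 CPM in set B. Of the 35 members, 24 had a higher median in the 2 libraries of set A and 19 in the 5 of set B. With no overlap, 6 were higher in set A (TPI1, PGK1, PGAM1, ENO1, BNIP3 and P4HA1) and 1 in set B (ENO1), and 2 were lower in each (PFKP and EPAS1 in set A, EPAS1 and GPI in set B). The libraries were set apart by all genes, members included, so these levels are a description. The same counts were not made over all genes for this split. Whether the members' counts differ from those of other genes is therefore not known.

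Other measures moved with them. Ribosomal protein genes took 15.2% to 16.3% of counts in those of set A against 11.6% to 14.4%, and 14.7% to 17.1% in those of set B against 9.2% to 11.2%. The summed level of the 10 endothelial markers was 1143 to 1187 CPM against 1445 to 1624 CPM in set A, and 901 to 1077 CPM against 1377 to 1748 CPM in set B. The sum does not describe every marker. CLDN5 was higher in those of set A, at 18.8 and 26.3 CPM against 9.8 to 17.1 CPM. ESAM in those of set B lay within the range of the other libraries. KRT19, the 1 epithelial marker with a row, was at 717 to 877 CPM against 415 to 595 CPM and at 611 to 963 CPM against 399 to 467 CPM. The part of these measures in the members' levels was not tested.

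**Figure D4:**
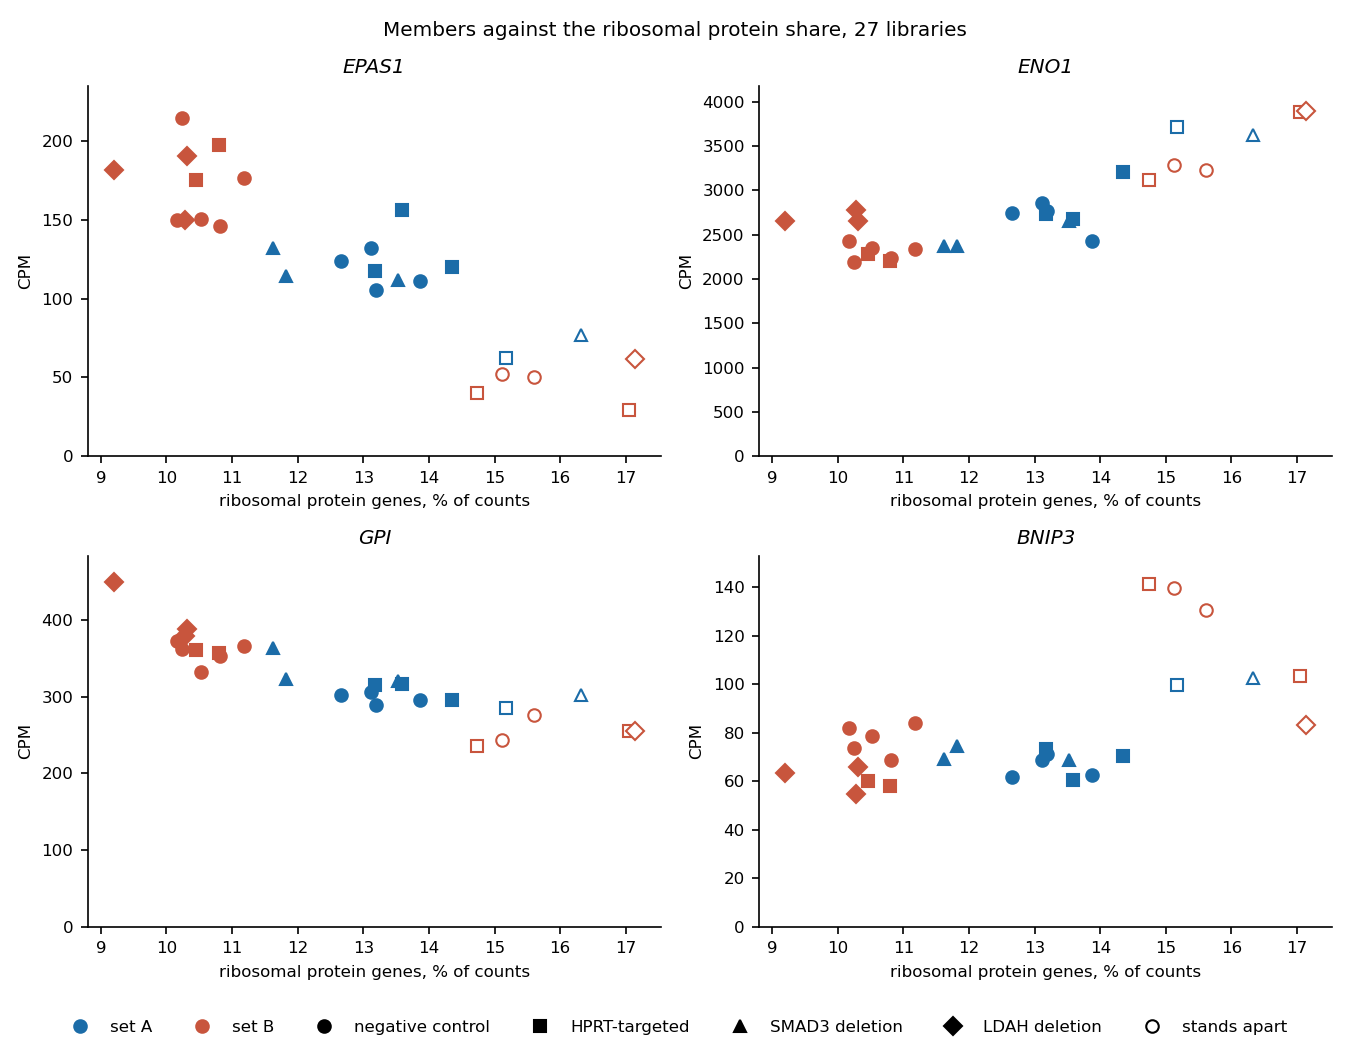
Levels of EPAS1, ENO1, GPI and BNIP3 in CPM (y axis) against the percentage of counts from ribosomal protein genes (x axis) in the 27 libraries; open circles are the 7 that correlated less well with their set. EPAS1 lies at 29.5 to 76.9 CPM in those 7 and at 105.7 to 214 CPM in the others.

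Of 50 other genes of the same pathways, 41 were in the table and 37 were tested. In the negative control of set B against that of set A, 5 of the 37 passed (13.5%, against 9.06% of genes). Higher were the pentose phosphate enzymes TKT (transketolase) at 0.85 ± 0.15 (adjusted p = 0.00463, edgeR) and PGD (6-phosphogluconate dehydrogenase) at 0.43 ± 0.12 (adjusted p = 0.0469). TKT was at 241 to 271 CPM in set A and 375 to 603 CPM in set B, without overlap. PLOD2, a collagen lysyl hydroxylase and HIF target, was higher at 0.72 ± 0.14 (adjusted p = 0.00665), and so was the pyruvate carrier SLC16A7 (MCT2) at 0.92 ± 0.22 (adjusted p = 0.0186). PDHA1, a subunit of pyruvate dehydrogenase, was lower at -0.44 ± 0.12 (adjusted p = 0.0348), at 47.2 to 63.8 CPM in set B against 70.7 to 76.4. With 1 library left out, TKT and PLOD2 kept their calls. PGD and PDHA1 lost theirs without any 1 of the 4 negative control libraries of set A, and SLC16A7 without replicate 2, 3 or 4 of it (adjusted p from 0.0628 to 0.144). Of set B, PGD and PDHA1 lost it without replicate 1, 3 or 4, and PGD also without replicate 6 (0.0528 to 0.0656). None of the 37 passed in any of the other 8 comparisons. The smallest unadjusted p of the list among these was that of PLOD2 in the SMAD3 deletion, at 131 to 149 CPM against 86.1 to 106 CPM (log2 difference 0.53 ± 0.15, unadjusted p = 0.00328, adjusted p = 0.702, edgeR).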

How the data were processed

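The authors deposited a table of whole-number read counts per gene, 14008 genes by 27 libraries; all 27 count columns were used. Per the submitters' processing notes, edgeR 3.24.3 and the build hg38 were used. No aligner, counting program or strand setting is named in these sources. Members that overlap another gene of the count table at the 3′ end (SLC16A3, BNIP3L, ANKRD37, TPI1 and ALDOC) are therefore uncertain. So are those that overlap an annotated gene with no row there (GPI, PFKP, ALDOA, GAPDH, LDHB, HIF1A and P4HA2). Those with processed pseudogenes (GAPDH, LDHA and PGAM1) are uncertain too. Sequencing was single-end for 86 cycles, per the labels. Positions are those of GENCODE 29 on GRCh38.

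From these counts, CPM with TMM factors over all 27 libraries was computed. Tests were two-sided and used the quasi-likelihood functions of edgeR 4.0.16 (R 4.3.3) after filterByExpr and TMM, and p-values were adjusted by Benjamini and Hochberg across every gene tested, with a threshold of 0.05. Set A was fitted with its 12 libraries and set B with its 15; HPRT targeting over both sets used 19 libraries and a set term, and the controls were compared over 11. SEs are the log2 fold change divided by the root of F; intervals are at 95%. Common dispersions were 0.0434 (set A) and 0.195 (set B). Alternatives were DESeq2 1.42.0, limma 3.58.1 voom with sample quality weights, DESeq2 size factors, no filter, a mean CPM of at least 10, the groups compared alone, all 27 libraries in 1 fit, and each library left out. The alternative without 7 libraries was added after seeing the data; a library stood apart when its median correlation with its set lay over 3 scaled median absolute deviations below the set's median. The fits were also run on simulated counts, drawn gene by gene without shifts shared across a library such as those of the 7. No conclusion is drawn from that run.

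The members, the role lists and the 50 other pathway genes were chosen with earlier results of these data known. Members named with a value in every library are the most abundant of each role, those called, or else the 2 with the smallest p of a comparison, with their paralogs; others named here were chosen after their values were seen. The titles carry a number whose meaning is not stated: it is 10 to 13 in the SMAD3 deletion and 26 to 33 in the controls of its set, and 50 to 54 in the LDAH deletion and 55 to 67 in its controls. Each deletion thus coincides with a block of numbers, and anything that followed the number cannot be told apart from the deletion.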

Additional observations from a re-analysis of the deposited data

Results flagged for a closer look

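Among 23 members given by library, 138 groups of 4 or 7 libraries were examined for a library far from the rest, and 13 had one; chance gives about 1 in 20. Of the 13, 7 lay in the libraries that correlated less well with their set.

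The LDAH deletion's replicate 4 was one of these, with GAPDH at 2430.2 CPM and ENO1 at 3892 CPM, each above the other 3 libraries. In the HPRT-targeted group of set B, replicate 4 was high for GAPDH at 2568 CPM and for TPI1, triosephosphate isomerase, at 732 CPM. Replicate 2 of that group was low for PFKL at 25.6 CPM and high for PFKFB3 at 98.3 CPM. The SMAD3 deletion's replicate 4 was high for ALDOA at 584 CPM.

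The other 6 were in libraries that correlated well with their set. GAPDH was high in replicate 3 of the negative control of set A, at 2506 CPM. The LDAH deletion had PFKL at 107 CPM in replicate 3 and PFKFB3 at 115 CPM in replicate 2, both the highest of their group. In the HPRT-targeted group of set A, replicate 1 was high for SLC2A3 at 53.9 CPM. It was low for P4HA2, a collagen prolyl hydroxylase subunit, at 64.8 CPM. LDHB was high at 345 CPM in replicate 3 of the HPRT-targeted group of set B.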

How the results depend on the processing

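Under the alternatives 1843 values were recomputed, which include counts of calls, and those have no direction. Of the tests of single genes, 0 reversed direction. These genes were picked by a call, by a small p or after their values were seen. Of the counts of calls, 360 stayed within 1.5 times and 38 moved. Of the members' own tests, 1127 kept their side of the threshold, 23 lost a call and 25 gained one; of those of other pathway genes, 250 kept theirs and 20 lost a call. The cause was not tested.

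Between the negative controls, the 5 members called became 13 with limma voom, 3 with no filter on low counts, 14 without the 7 libraries and 2 to 7 with 1 library left out. All genes called there became 3615 with limma voom, 3536 without the 7 and 480 to 1595 with 1 library left out. Against a count of 0 genes, DESeq2 called 14 in the SMAD3 deletion, 14 in the LDAH deletion, 17 between SMAD3 deletion and HPRT targeting, 1 for HPRT targeting in set A, 1 in both sets, and 3 for its difference between sets. Limma voom called 2 in the SMAD3 deletion, 5 against HPRT targeting and 6 for HPRT targeting in both sets, and 1 fit of all 27 libraries called 9 in the LDAH deletion. Without the 7, the counts were 1 in the SMAD3 deletion, 1 for HPRT targeting in set A, 1 in both sets and 1 for its difference, 55 between SMAD3 deletion and HPRT targeting, 212 in the LDAH deletion (1 member) and 77 between LDAH deletion and HPRT targeting. With 1 library left out, the range was 0 to 2 between SMAD3 deletion and HPRT targeting and 0 to 1 for the difference of HPRT effects (the highest in each without replicate 3 of the HPRT-targeted group of set A), and 0 to 3 in the LDAH deletion (3 without its replicate 4).

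No paired analysis was possible because the labels give the libraries no replicate numbers that groups share. A fit of the compared groups alone gives no other value for the fits over both sets. The spread in set B, with a common dispersion of 0.195, limits what 4 libraries can show there.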
